A study of Homo sapiens with 24 samples.

Results

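Origin licensing loads the replicative helicase onto DNA before S phase, and the 10 genes described here encode the helicase ring MCM2-7, its loading factors CDC6 and CDT1, and the helicase activators MCM10 and CDC45. They were taken by gene symbol from the deposited table of 14585 genes, and all 10 were found there and passed the filter on low counts in both cell lines. The rule used symbols only and no measured value, but the genes were chosen with earlier results of these data known.

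RNA was sequenced from A549 cells, a human lung carcinoma line, and from Huh7 cells, a human hepatocellular carcinoma line. Both are labelled as wild type, but the paper states that p53 is wild type in A549 cells and mutant in Huh7 cells. The part of this difference in the results was not tested. Cells of each line were either controls or treated with an extract of Pulsatilla chinensis (P. chinensis), Bupleurum chinense (B. chinense) or Polyporus umbellatus (P. umbellatus), with 3 libraries in each of the 8 groups and 24 in all. How much extract the sequenced cells received and for how long, and whether control cells received the DMSO in which the extracts were dissolved, is not given in the sources used here. Nothing in the labels states that the 3 libraries of a group came from separate cultures, so the p-values measure only the spread between these samples, which may be technical.

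The ring genes lie on different chromosomes (GRCh38, GENCODE v44): MCM2 (ENSG00000073111) at chr3:127598410-127622436, MCM3 (ENSG00000112118) at chr6:52264014-52284881, MCM4 (ENSG00000104738) at chr8:47960185-47978160, MCM5 (ENSG00000100297) at chr22:35400134-35425431, MCM6 (ENSG00000076003) at chr2:135839626-135876443 and MCM7 (ENSG00000166508) at chr7:100092233-100101940. CDC6 (ENSG00000094804) lies at chr17:40287879-40304657 and CDT1 (ENSG00000167513) at chr16:88803789-88809258. MCM10 (ENSG00000065328) lies at chr10:13161558-13211110 and CDC45 (ENSG00000093009) at chr22:19479457-19520612. Their canonical transcripts have 10 to 20 exons and range from 1879 bases (CDC45) to 4564 bases (CDC6), and their GC content ranges from 43.2% (MCM6) to 64.3% (CDT1).

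In G1 phase, the origin recognition complex together with CDC6 and CDT1 places a pair of MCM2-7 rings around DNA in an inactive form, and geminin and CDT1 destruction prevent reloading once S phase has begun. S phase kinases then recruit CDC45 and the GINS complex to each ring, which makes the active helicase, and MCM10 helps to set it in motion. The genes are known for high mRNA levels in proliferating cells, and many of them are described as targets of E2F transcription factors, which act at the transition from G1 to S phase.

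Start site windows of 250 bases before to 50 bases after a gene's start were taken from RefSeq (GRCh38.p14) and matched 8 of the 10 genes, all but MCM4 and MCM5. The E2F letters TTTCCCGC, TTTCGCGC, TTTGCCGC and TTTGGCGC, on either strand, stood in windows of 6 of these 8 genes, which were MCM2, MCM3, MCM6, MCM7, CDC6 and CDT1, and not in those of MCM10 and CDC45. Over all RefSeq windows of the same length, 3.31% of 35116 windows and 3.99% of 27305 genes held these letters. The stretches that hold them are shown so that the letters can be read in place, and capitals mark the E2F letters on either strand. Positions are counted from the start site, with -1 just before it. The MCM6 stretch spans bases -156 to -75 on the minus strand (chr2:135876518-135876599), MCM2 bases -9 to 21 on the plus strand (chr3:127598402-127598431), MCM3 bases -15 to 15 on the minus strand (chr6:52284728-52284757), MCM7 bases -20 to 10 on the minus strand (chr7:100101388-100101417), CDC6 bases -4 to 26 on the plus strand (chr17:40287875-40287904) and CDT1 bases -46 to -17 on the plus strand (chr16:88803743-88803772).
MCM6: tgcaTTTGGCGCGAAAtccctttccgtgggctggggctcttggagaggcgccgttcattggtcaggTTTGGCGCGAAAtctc
MCM2: cgtgaaccactTTTCGCGCGAAAcctggtt
MCM3: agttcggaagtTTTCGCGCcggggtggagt
MCM7: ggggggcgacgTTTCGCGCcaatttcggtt
CDC6: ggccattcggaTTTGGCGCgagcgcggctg
CDT1: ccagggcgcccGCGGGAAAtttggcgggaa

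In MCM6 and MCM2 the letters matched on both strands with overlap, and MCM6 held such an overlapping pair at 2 places. MCM3 and MCM7 each had a further match upstream, at bases -174 to -167 and -187 to -180, which is not printed. MCM7 and CDC45 have 3 RefSeq windows each, and 1 of those of MCM7 held the letters. The CCAAT box, searched as CCAAT on either strand, stood in windows of 6 of the 8 genes, all but MCM2 and CDT1, against 34.6% of all windows and 39.7% of genes. In MCM7 a CCAAT shared 1 base with the E2F letters at the start site. The letters TTTGAA, the core of the cell cycle homology region of late cell cycle genes, stood in the windows of 0 of the 8 genes, against 15.2% of all windows and 18.2% of genes. A match describes the letters in these windows and is not evidence of binding.

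The libraries summed to between 6803704 and 24345541 estimated counts, with a median of 10515192, and the 10 genes had 111 to 15508 counts in a library, the fewest for CDC45 in A549 cells. Levels are given as CPM, counts scaled to a common library size after TMM normalization within a line, except where a common scale of the 24 libraries is named. Levels of cell type markers are plain CPM, scaled by the library sum without TMM normalization. KRT7 stood at 1498 to 1786 CPM in A549 cells and at no more than 0.131 CPM in Huh7 cells, while the summed level of 8 hepatocyte markers was 47.6 to 130.3 CPM in A549 cells, nearly all of it HNF4A, and 13270 to 23570 CPM in Huh7 cells. Of the lung markers, EGFR stood at 705.1 to 1107 CPM in A549 cells and 371 to 511 CPM in Huh7 cells, SFTPB at 0.99 to 2.73 CPM in A549 cells and, higher, 2.13 to 5.27 CPM in Huh7 cells, MUC1 was near the detection limit in A549 cells, and NKX2-1, NAPSA and SFTPC are not in the table used. The sums of fibroblast, leukocyte and endothelial markers each stayed at 10.5 CPM or below in A549 cells, and in Huh7 cells fibroblast markers summed to 12.3 to 33.3 CPM, endothelial markers to 33.5 to 55.97 CPM, and LYZ, a leukocyte marker, reached 354 to 733 CPM. Replicate 2 of P. umbellatus in Huh7 cells stood apart. Its median chi-square over genes against its replicates was 15.6 to 21.0 times that expected from sampling, a ratio of squared differences. The other 22 replicate pairs gave 2.72 to 5.79. Bulk RNA cannot tell fewer cells expressing a gene from less of its mRNA per cell.

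**Figure D1:**
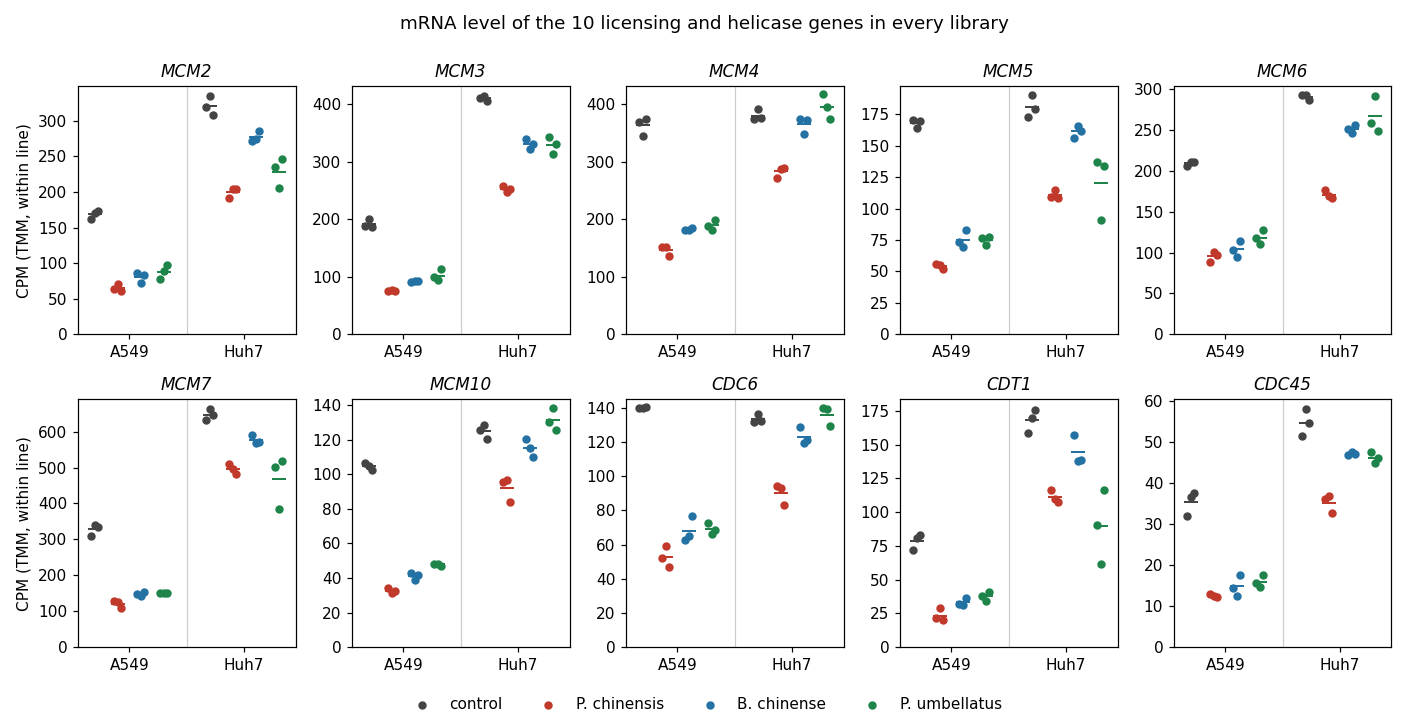
Level of each gene in every library, in CPM after TMM normalization within a line (y axis, from 0), in 10 panels, 1 per gene, with A549 on the left and Huh7 on the right of each; a dot is 1 of 3 replicates, colours are the groups and short bars the group means. In A549 cells all treated dots lie below all control dots for every gene, and in Huh7 cells only the P. chinensis dots do so for every gene. The share of all genes separated in this way is not given.

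In A549 cells, the whole set was lower with each extract. P. chinensis lowered all 10 genes, with a median log2 fold change of -1.42 and a range from -1.74 for CDT1 to -1.13 for MCM6. B. chinense lowered all 10 with a median of -1.11, and P. umbellatus all 10 with a median of -1.04. Of the 13633 genes tested, 17.1%, 14.99% and 14.8% were called lower in these comparisons (edgeR's quasi-likelihood test, two-sided, Benjamini-Hochberg adjusted p below 0.05), and the median log2 fold change of all genes lay between -0.01 and 0.01. Every treated library was below every control library for each of the 10 genes with each extract. The share of all genes separated in this way is not given, here or in later comparisons. The 3 comparisons use the same control libraries. The summed hepatocyte markers, all 8 in the table, moved with treatment in A549 cells. The sum was 113.5 to 130.3 CPM in control and 47.6 to 59.6 CPM over the treated groups, nearly all of it HNF4A. The part of these markers in the results was not tested.

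Among the ring genes in A549 cells, MCM5 changed most with P. chinensis. MCM5 stood at 170.1, 164 and 169.9 CPM in control cells and at 56.2, 55.3 and 51.9 CPM with P. chinensis. The treated level was 32.5% of control (log2 fold change ± SE of -1.62 ± 0.069, adjusted p = 1.02e-09), and the values in parentheses after other genes are the same quantities. MCM7, the ring gene with the highest level per length, stood at 310.5, 340.3 and 334 CPM in control and 128, 127 and 108.4 CPM with P. chinensis, and it fell by 1.44 on the log2 scale (SE 0.062, adjusted p = 1.15e-09). The highest treated library of MCM7 lay well below the lowest control library. MCM2, which carries a long N-terminal tail phosphorylated by the S phase kinase CDC7, stood at 162, 171 and 174 CPM in control and 64.3, 71.03 and 60.7 CPM with P. chinensis (-1.37 ± 0.09, adjusted p = 3.63e-08). MCM3 stood at 188, 199.9 and 186 CPM in control and 74.3, 77.02 and 74.95 CPM with P. chinensis (-1.34 ± 0.063, adjusted p = 2.09e-09). MCM4 stood at 369, 345 and 375 CPM in control and 151, 152 and 135 CPM with P. chinensis (-1.31 ± 0.054, adjusted p = 9.21e-10). All of these ring genes ended below 41% of control. MCM6 changed least of the ring, from 206, 211 and 211 CPM in control to 88.97, 100.5 and 96.5 CPM, or 45.6% of control (-1.13 ± 0.072, adjusted p = 2.64e-08).

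With B. chinense, the log2 fold changes of the ring genes in A549 cells ranged from -1.16 (MCM5) to -0.99 (MCM4), and with P. umbellatus from -1.16 (MCM5) to -0.83 (MCM6). MCM5 stood at 73.1, 69.02 and 83.3 CPM with B. chinense and at 76.9, 71.3 and 77.4 CPM with P. umbellatus, so that these groups overlapped and both lay above P. chinensis. MCM7 stood at 148, 143 and 154 CPM with B. chinense and at 151, 151 and 150.5 CPM with P. umbellatus. MCM6 stood at 103, 94.4 and 114 CPM with B. chinense, overlapping its P. chinensis values, and at 118, 109.9 and 128 CPM with P. umbellatus. The least reduced ring level was that of MCM6 with P. umbellatus, at 56.4% of control.

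The loading factors fell as the ring did. CDC6, the ATPase that joins the origin recognition complex to receive the ring, stood at 139.9, 140.2 and 140.4 CPM in A549 controls and at 51.98, 58.9 and 46.9 CPM with P. chinensis. This was 37.6% of control (-1.41 ± 0.088, adjusted p = 2.15e-08), while B. chinense left 48.6% and P. umbellatus 49.5%. CDT1, which brings the ring to the origin, showed the lowest share of control of all 10 genes with P. chinensis. Its level was 71.95, 80.8 and 83.02 CPM in control and 21.3, 28.7 and 20.3 CPM with P. chinensis. B. chinense gave 32.1, 31.2 and 36.7 CPM and P. umbellatus 37.8, 34.1 and 40.8 CPM. The P. chinensis libraries lay below all others, and the level was 29.9% of control (-1.74 ± 0.12, adjusted p = 8.27e-08). The log2 fold change of CDT1 was -1.24 ± 0.12 for B. chinense and -1.07 ± 0.12 for P. umbellatus.

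MCM10, which binds the assembled helicase, stood at 107, 105 and 102 CPM in A549 controls. It measured 34.4, 31.5 and 32.2 CPM with P. chinensis, 42.6, 38.8 and 41.6 CPM with B. chinense, and P. umbellatus gave 48.3, 48.3 and 46.9 CPM. These 4 groups did not overlap, and P. chinensis gave the lowest values. P. chinensis gave MCM10 a log2 fold change of -1.67 ± 0.066, adjusted p = 6.41e-10, B. chinense -1.35 ± 0.066, adjusted p = 8.28e-09, and P. umbellatus -1.12 ± 0.064, adjusted p = 2.67e-08. CDC45, a component of the active helicase, had the lowest level per length of the 10 genes in A549 controls and stood at 31.9, 36.7 and 37.5 CPM in control and 13, 12.4 and 12.2 CPM with P. chinensis (-1.49 ± 0.14, adjusted p = 9.36e-07). Its values with B. chinense, 14.3, 12.4 and 17.7 CPM, overlapped both other extracts.

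**Figure D2:**
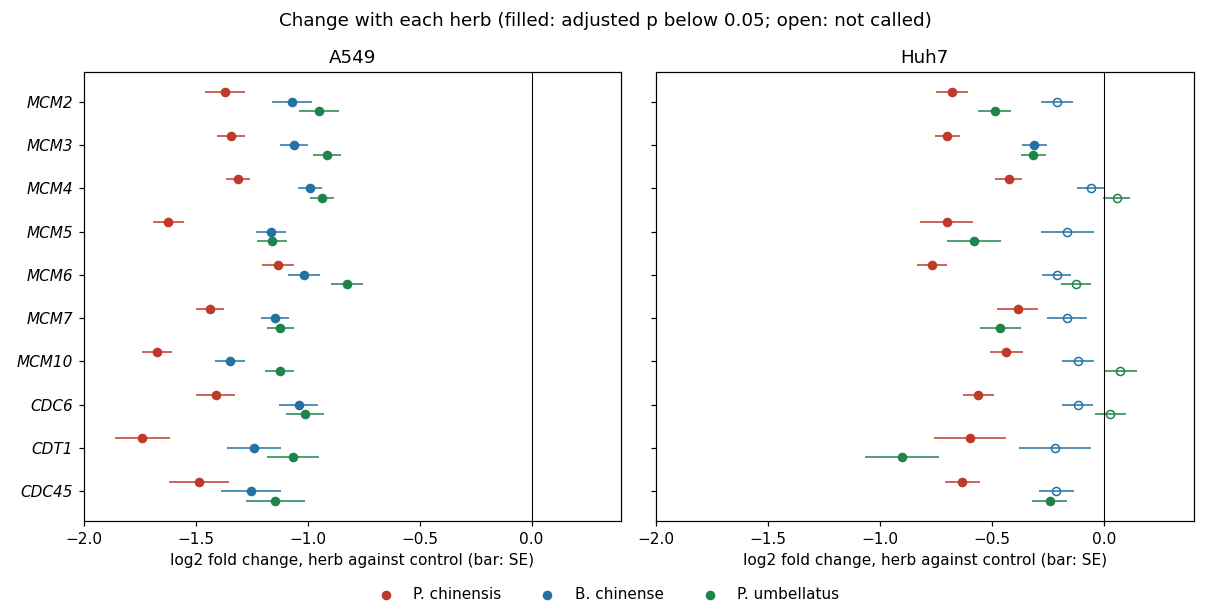
Log2 fold change of each gene against control (x axis, bars are SE) in A549 (left) and Huh7 (right), with 1 point per extract; filled points passed the test and open points did not. In A549 all 30 points are filled and lie below -0.8, while in Huh7 P. chinensis has 10 filled points, P. umbellatus 6 and B. chinense 1.

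The extracts were also compared with each other in A549 cells. P. chinensis gave lower levels than B. chinense for 4 of the 10 genes, against 1.005% of all genes tested. These were MCM4 (-0.32 ± 0.055, adjusted p = 0.0138), MCM5 (-0.46 ± 0.071, adjusted p = 0.00713), MCM7 (-0.29 ± 0.063, adjusted p = 0.036) and MCM10 (-0.33 ± 0.069, adjusted p = 0.0314). MCM3, CDC6 and CDT1 had adjusted p of 0.0502, 0.0579 and 0.0696 and were not called. P. chinensis gave lower levels than P. umbellatus for 9 of the 10 genes, against 2.19% of all genes, with differences from -0.67 (CDT1) and -0.55 (MCM10) to -0.31 (MCM6), and CDC45 was not called (-0.34 ± 0.14, adjusted p = 0.227). All P. chinensis libraries were below all P. umbellatus libraries for each of the 10 genes. B. chinense and P. umbellatus differed for 0 of the 10 genes in edgeR's test and in DESeq2, with 3 genes at an unadjusted p below 0.05, against 0.0293% of all genes called lower. The 4 calls against B. chinense fell to 1 without replicate 3 of P. chinensis or of B. chinense, to 2 without replicate 1 of B. chinense or replicate 2 of control, and to 0 when only the 6 libraries compared were fitted. The 9 calls against P. umbellatus fell to 4 without replicate 3 of P. chinensis or of P. umbellatus, and to 5 with only the groups compared.

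In Huh7 cells, all 10 genes were again called lower with P. chinensis, whereas fewer were called with each of the other extracts. With P. chinensis, the median log2 fold change was -0.61, and 10 of 10 genes were called, against 10.5% of the 13875 genes tested. With B. chinense, 1 of 10 was called lower, against 0.757% of all genes, and the median was -0.19. With P. umbellatus, 6 of 10 were called lower, against 17.8% of all genes, with a median of -0.28. The median of all genes lay between 0 and 0.03 in these comparisons. None of the 10 genes was called higher with any extract in either line. In the order P. chinensis, B. chinense, P. umbellatus, 15.8%, 13.1% and 13.4% of all genes were called higher in A549 cells. In Huh7 cells the shares were 10.5%, 0.519% and 19.3%, so the 0 of B. chinense there is near that of all genes. In Huh7 cells the summed hepatocyte markers stood at 20430 to 20870 CPM in control and 13270 to 14190 CPM with P. chinensis, and the 4 fibroblast markers at 12.3 to 15.6 CPM and 22.6 to 33.3 CPM. The leukocyte sum, nearly all LYZ, was 694.1 to 735.4 CPM in control and 356.9 to 505.9 CPM over the treated groups, and the part of these markers in the results was not tested.

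MCM6, the least changed ring gene in A549 cells with P. chinensis, changed most of all 10 genes with P. chinensis in Huh7 cells. It stood at 293, 293 and 286 CPM in control and 176, 169 and 167 CPM with P. chinensis. The treated level was 58.7% of control (-0.77 ± 0.066, adjusted p = 8.06e-06). MCM3 stood at 411, 414 and 405 CPM in control and 258, 247 and 252 CPM with P. chinensis (-0.70 ± 0.056, adjusted p = 5.04e-06). MCM5 stood at 173, 190.2 and 179 CPM in control and 109.5, 115 and 108.1 CPM (-0.70 ± 0.12, adjusted p = 0.00134). MCM2 stood at 319.9, 335 and 308 CPM in control and 192, 205 and 204 CPM (-0.68 ± 0.072, adjusted p = 4.5e-05). In each of these ring genes the treated libraries lay far below the control libraries. MCM4 stood at 373.4, 391 and 375 CPM in control and 272, 288 and 289 CPM (-0.43 ± 0.061, adjusted p = 0.00042). MCM7 changed least of the 10 genes, from 632, 663 and 647 CPM to 509, 496 and 481 CPM, or 76.6% of control (-0.39 ± 0.091, adjusted p = 0.01).

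Both loading factors and both activators also fell with P. chinensis in Huh7 cells. CDC6 stood at 132, 136 and 132 CPM in control and 94.6, 93.3 and 83.02 CPM with P. chinensis (-0.56 ± 0.07, adjusted p = 0.000143). CDT1 stood at 159, 169.6 and 176 CPM in control and 116, 109 and 107 CPM (-0.60 ± 0.16, adjusted p = 0.0192). The CDT1 call did not hold without replicate 2 or 3 of P. chinensis or of control, with adjusted p between 0.0557 and 0.0704. MCM10 stood at 126, 128 and 120.3 CPM in control and 95.6, 96.6 and 84.1 CPM (-0.44 ± 0.073, adjusted p = 0.00121). CDC45 stood at 51.4, 58.1 and 54.5 CPM in control and 36.01, 36.9 and 32.7 CPM (-0.63 ± 0.077, adjusted p = 0.000133). No treated library of these genes reached the lowest control library.

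With B. chinense in Huh7 cells, the 10 genes stood at 80.6% to 96.00% of control. MCM3 was the gene called, at 339, 322 and 329.8 CPM with B. chinense (-0.31 ± 0.055, adjusted p = 0.0165). The other 9 genes had log2 fold changes from -0.22 (CDT1) to -0.06 (MCM4) with SE of 0.061 to 0.16. MCM6 stood at 251, 246 and 256 CPM with B. chinense (-0.21 ± 0.066, adjusted p = 0.175) and MCM2 at 272, 275 and 286 CPM (-0.21 ± 0.072, adjusted p = 0.222). Although not called, both had their B. chinense libraries below all control libraries, and such separation was seen for 8 of the 10 genes. No share of all genes is set beside that count, so nothing is read from it. The count of calls depended on the fit. Leaving out any 1 B. chinense or control library gave 0 calls, with the adjusted p of MCM3 between 0.0545 and 0.0920. The count was 4 without replicate 2 of P. umbellatus, the library that stood apart, namely MCM2, MCM3, MCM6 and MCM7, while 3.94% of all genes were then called lower.

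P. umbellatus divided the set in Huh7 cells. CDT1, MCM5, MCM2, MCM7, MCM3 and CDC45 fell, while MCM4, MCM6, MCM10 and CDC6 were not called. CDT1 stood at 90.6, 61.5 and 116 CPM with P. umbellatus, 53.5% of control (-0.90 ± 0.16, adjusted p = 0.00232). MCM5 stood at 137, 91.2 and 134 CPM (-0.58 ± 0.12, adjusted p = 0.00421) and MCM7 at 502, 386 and 519 CPM (-0.46 ± 0.091, adjusted p = 0.00328). For these 3 genes replicate 2 was the lowest library by a wide margin. MCM2 stood at 235, 205 and 246 CPM (-0.49 ± 0.072, adjusted p = 0.000999), MCM3 at 343, 314 and 330.4 CPM (-0.32 ± 0.056, adjusted p = 0.00211) and CDC45 at 47.5, 44.9 and 46.1 CPM (-0.24 ± 0.079, adjusted p = 0.0307). The treated libraries of all 6 called genes lay below every control library. The 4 genes not called overlapped control: MCM4 stood at 417, 396 and 374 CPM (0.06 ± 0.061, adjusted p = 0.488), and MCM6 at 259, 292 and 249 CPM (-0.13 ± 0.066, adjusted p = 0.15). MCM10 stood at 130.2, 138 and 126 CPM (0.07 ± 0.073, adjusted p = 0.46) and CDC6 at 139.9, 139 and 129 CPM (0.03 ± 0.07, adjusted p = 0.778).

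The division followed the GC content of the transcripts. The 6 genes called have a GC content of 51.3% to 64.3%, and the 4 not called 43.2% to 47.7%. Over all genes tested, the median log2 fold change with P. umbellatus in Huh7 cells in 4 equal bins of GC content moved from 0.32 in the lowest bin through 0.18 and -0.09 to -0.55 in the highest bin. In the other 5 comparisons with control, the bin medians lay between -0.05 and 0.07. When each library was corrected for GC content and transcript length, 3 genes were called lower with P. umbellatus, namely MCM6 (-0.34), MCM5 (-0.24) and MCM3 (-0.21), against 7.91% of all genes, and CDT1 was at -0.03. This correction also removed each library's mean deviation over genes while the TMM factors were kept, so it shifted whole libraries too. How much of each corrected value is that shift was not tested. What caused the dependence on GC content was not tested. Without replicate 2 of P. umbellatus, 7 genes were called, MCM6 in addition to the 6, against 16.2% of all genes, and with only the groups compared 3 were called. With P. chinensis in Huh7 cells, all 10 genes stayed called under the same correction. The correction also raised the number of all genes called lower in that comparison, from 1451 to 3247.

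**Figure D3:**
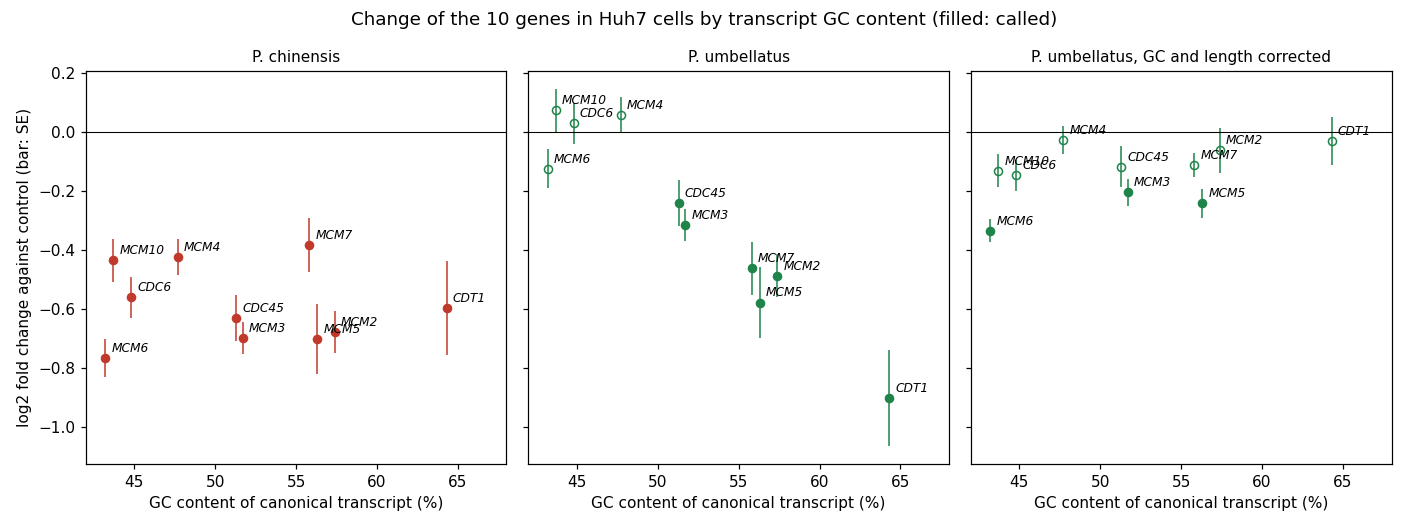
Log2 fold change against control in Huh7 cells (y axis, bars are SE) by the GC content of each gene's canonical transcript in percent (x axis), in 3 panels for P. chinensis, P. umbellatus, and P. umbellatus after correction for GC content and length; filled points passed the test. Before the correction the P. umbellatus values lie between -0.13 and 0.07 at a GC content of up to 47.7% and reach -0.90 at 64.3%, and after it all lie between -0.34 and -0.03. The correction also shifted whole libraries.

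Between the extracts in Huh7 cells, P. chinensis gave lower levels than B. chinense for 8 of the 10 genes, against 3.91% of all genes. The differences of these 8 ran from -0.56 (MCM6) to -0.32 (MCM10). MCM7 (-0.22 ± 0.091, adjusted p = 0.176) and CDT1 (-0.38 ± 0.16, adjusted p = 0.187) were not called. All 10 genes had every P. chinensis library below every B. chinense library, with no share of all genes to set beside it. P. chinensis gave lower levels than P. umbellatus for 6 of 10, against 18.8% of all genes, the 6 being MCM6, CDC6, MCM10, MCM4, CDC45 and MCM3. The count was 10 after the GC correction. B. chinense gave higher levels than P. umbellatus for 4 of 10, against 12.6% of all genes called higher and 14.6% called lower, namely CDT1 (0.68 ± 0.16, adjusted p = 0.0144), MCM5, MCM7 and MCM2. None of these 4 was called after the GC correction or with only the groups compared, and without 1 B. chinense replicate the count was 1 or 2. Without replicate 2 of P. umbellatus, the counts for these 3 comparisons were 10, 8 and 4. The shares of all genes under these other fits are not given here, so nothing is read from the changes in count.

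Whether the lines responded differently was tested by an interaction term over the 12924 genes tested in both. The fall with P. chinensis was larger in A549 than in Huh7 cells for 10 of the 10 genes, against 9.30% of all genes. It differed most for MCM10 (-1.19 ± 0.09, adjusted p = 5.07e-09) and CDT1 (-1.09 ± 0.22, adjusted p = 0.000851) and least for MCM6 (-0.31 ± 0.096, adjusted p = 0.0235), whose call was lost without replicate 1 of P. chinensis in A549 cells. With B. chinense the response differed for 10 of 10, against 5.80% of all genes, from -1.19 (MCM10) to -0.71 (MCM3). With P. umbellatus it differed for 9 of 10, against 15.3% of all genes, from -1.12 (MCM10) to -0.38 (MCM2), and CDT1 was not called (-0.09 ± 0.21, adjusted p = 0.784). After the GC and length correction CDT1 was called as well, at -1.05 ± 0.14 (adjusted p = 6.87e-06), which made 10 of 10. The MCM2 call was lost without replicate 1 of P. umbellatus in A549 cells. MCM10 had the largest difference between the lines with each extract.

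In control cells, on a common TMM scale of the 24 libraries, 7 of the 10 genes were lower in A549 than in Huh7 cells, against 34.9% of all genes called lower. MCM3 (-1.10 ± 0.055, adjusted p = 7.16e-14) and CDT1 (-1.09 ± 0.15, adjusted p = 9e-07) differed most. MCM4, MCM5 and CDC6 were not called, with log2 differences between -0.10 and 0.07.

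The 6 ring proteins assemble in equal numbers, but their mRNAs were unequal. In CPM per kb of canonical transcript, on the common TMM scale of the 24 libraries (mean ± SD, n = 3), A549 controls had MCM7 at 135 ± 6.45, MCM4 at 90.9 ± 4.01, MCM3 at 63.5 ± 2.39 and MCM6 at 56.8 ± 0.743. MCM2 at 50.05 ± 1.76 and MCM5 at 49.4 ± 1.03 followed with overlapping libraries. Then came CDC6 at 31.2 ± 0.0818 and CDT1 at 30.01 ± 2.25, which also overlapped, MCM10 at 23.4 ± 0.451 and CDC45 at 19.1 ± 1.64. Huh7 controls had MCM7 at 266 ± 6.05 and MCM3 at 136 ± 1.44, then MCM4 at 95.01 ± 2.30 and MCM2 at 94.99 ± 3.87, whose libraries overlapped. MCM6 followed at 78.7 ± 1.05, CDT1 at 64.1 ± 3.22 and MCM5 at 53.1 ± 2.52, without overlap. CDC6 at 29.7 ± 0.515, CDC45 at 29.6 ± 1.77 and MCM10 at 27.9 ± 0.901 came last, each overlapping the next. CDT1 thus stood above a ring gene in Huh7 controls and below all of the ring in A549 controls.

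MCM7 had the highest and MCM5 the lowest mean level per kb of the ring in all 8 groups. The ratio of MCM7 to MCM5 was 2.74 in A549 controls, 3.12 for P. chinensis, 2.77 for B. chinense and 2.81 for P. umbellatus. In Huh7 cells it was 5.02 in controls, 6.26 for P. chinensis, 5.01 for B. chinense and 5.45 for P. umbellatus. The canonical transcript stands in for the transcripts that the cells use, so the order rests on that length, and the ratios were not tested against each other.

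**Figure D4:**
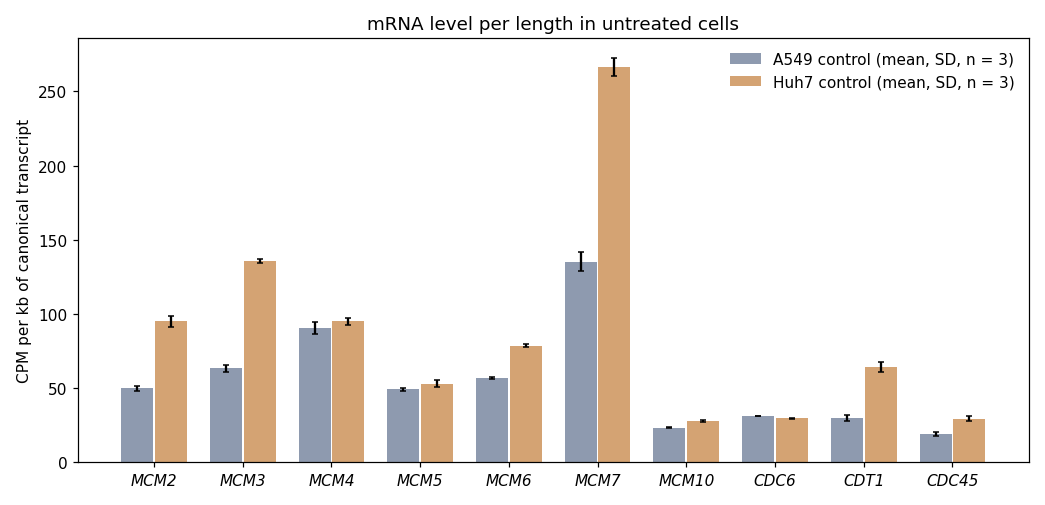
Mean level of each gene in control cells in CPM per kb of canonical transcript, on the common TMM scale of the 24 libraries (y axis, from 0) for A549 and Huh7 cells; error bars are the SD of 3 replicates. MCM7 is highest in both lines, at 135 in A549 and 266 in Huh7 cells, and CDT1 is at 30.01 in A549 and 64.1 in Huh7 cells.

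The 65 other replication genes compared, from 6 lists, were mostly called lower in A549 cells. With P. chinensis 48 were called lower and 2 higher, with a median log2 fold change of -0.86, where 17.1% of all genes were called lower and 15.8% higher. With B. chinense 48 were lower and 1 higher (median -0.64, 14.99% of all genes lower and 13.1% higher), and with P. umbellatus 48 were lower and 1 higher (median -0.64, 14.8% of all genes lower and 13.4% higher). In Huh7 cells P. chinensis gave 24 lower and 1 higher (10.5% of all genes lower and 10.5% higher), and P. umbellatus 9 lower and 9 higher (17.8% of all genes lower and 19.3% higher). B. chinense gave 0 calls among the 65 in Huh7 cells with edgeR, 1 with DESeq2 and 3 with voom, with 7 at an unadjusted p below 0.05 in edgeR, where 0.757% of all genes were called lower and 0.519% higher. In Huh7 cells both P. umbellatus counts lie below the share of all genes, and nothing is read from them or from the B. chinense count. Without replicate 2 of P. umbellatus in Huh7 cells, 35 of the 65 were lower and 3 higher for P. chinensis, 2 and 1 for B. chinense, 12 and 5 for P. umbellatus. The P. umbellatus split became 8 and 2 or 8 and 3 without 1 control library. No shares of all genes are set beside the counts of these fits here, so nothing is read from their changes.

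The origin recognition complex, the platform on which the ring is loaded, was called lower in some subunits and not in others. ORC1, its cell cycle regulated ATPase, fell in A549 cells with P. chinensis (-1.59 ± 0.099, adjusted p = 2.11e-08), B. chinense (-1.08) and P. umbellatus (-1.16). ORC6 (-1.01), ORC3 (-0.65) and ORC2 (-0.34) also fell with P. chinensis, and all were called lower with each extract in A549 cells. ORC4 (-0.02 ± 0.082, adjusted p = 0.894), ORC5 (-0.17 ± 0.079, adjusted p = 0.125) and the complex's partner LRWD1 (0.30 ± 0.16, adjusted p = 0.176) were not called with P. chinensis. ORC5 was called lower with P. umbellatus (-0.27 ± 0.079, adjusted p = 0.0193). In Huh7 cells ORC1 fell with P. chinensis (-0.39 ± 0.076, adjusted p = 0.00308), and no other gene of the complex was called with it. With P. umbellatus in Huh7 cells ORC3 (0.44 ± 0.13, adjusted p = 0.0196) and ORC4 (0.32 ± 0.092, adjusted p = 0.0184) were called higher, and no gene of the complex was called lower. After the GC and length correction neither call held, with ORC3 at 0.18 (adjusted p = 0.156) and ORC4 at -0.02 (adjusted p = 0.835), while LRWD1 was then called higher at 0.55 (adjusted p = 0.00297).

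Geminin (GMNN), the inhibitor of CDT1, fell in A549 cells with each extract, at log2 fold changes of -0.89 ± 0.096, adjusted p = 5.53e-06 for P. chinensis, -0.64 for B. chinense and -0.75 for P. umbellatus. In Huh7 cells it was not called, with log2 fold changes in the same order of -0.23, -0.24 and -0.13. DTL, the receptor through which a cullin ligase marks CDT1 for destruction, fell in A549 cells with P. chinensis (-1.62), B. chinense (-1.18) and P. umbellatus (-1.03), and in Huh7 cells with P. chinensis (-0.51 ± 0.12, adjusted p = 0.0105). SKP2, which acts on CDT1 in another ligase, also fell with each extract in A549 cells (-0.61, -0.48 and -0.44 in that order) and with P. chinensis in Huh7 cells (-0.60 ± 0.11, adjusted p = 0.00187). CUL4B, a scaffold of the ligase with DTL, rose with P. chinensis in A549 cells (0.19 ± 0.068, adjusted p = 0.0464).

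Among the origin firing genes in A549 cells, 12 of 15 fell with P. chinensis, 12 with B. chinense, 11 with P. umbellatus, against 17.1%, 14.99% and 14.8% of all genes. GINS2, a subunit of the GINS complex, fell with each (-1.81, -1.23 and -1.31 in that order), and its value was the lowest of the 65 genes for P. chinensis and for P. umbellatus. TICRR, which helps CDC45 to join the ring, fell with P. chinensis in A549 cells (-1.60 ± 0.085, adjusted p = 5.04e-09) and in Huh7 cells (-0.97 ± 0.065, adjusted p = 1.55e-06), where it changed most of the called genes. CCNE1, the cyclin of G1/S entry, went the other way in A549 cells and rose with B. chinense (0.46 ± 0.11, adjusted p = 0.00781) and P. umbellatus (0.60 ± 0.11, adjusted p = 0.00106). With P. umbellatus in Huh7 cells, RECQL4 was called lower (-1.09 ± 0.20, adjusted p = 0.00255) and CCNE2 higher (0.58 ± 0.20, adjusted p = 0.0398). The GC and length correction left RECQL4 at -0.23 (adjusted p = 0.0471) and CCNE2 at 0.21, no longer called (adjusted p = 0.332).

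Of the 28 genes of fork progression and polymerases, 25 fell with each extract in A549 cells, and 11, 0 and 5 fell in Huh7 cells, given in the order P. chinensis, B. chinense, P. umbellatus. In that order 17.1%, 14.99% and 14.8% of all genes were lower in A549 cells and 10.5%, 0.757% and 17.8% in Huh7 cells, so the count of P. umbellatus in Huh7 cells is near that of all genes. PRIM1, the catalytic primase subunit, fell in A549 cells with each extract (-1.49, -1.30 and -1.06 in the same order) and with P. chinensis in Huh7 cells (-0.58 ± 0.12, adjusted p = 0.00441). POLE2, a subunit of the leading strand polymerase, fell with each extract in A549 cells (-1.38, -1.14 and -1.23). POLD4, the small subunit of polymerase delta, rose with P. chinensis in A549 cells (0.47 ± 0.16, adjusted p = 0.0372) and in Huh7 cells (0.54 ± 0.14, adjusted p = 0.0187), whereas it fell with P. umbellatus in Huh7 cells (-0.86 ± 0.16, adjusted p = 0.00224). With P. umbellatus in Huh7 cells CHTF18, a clamp loader subunit, fell (-1.24 ± 0.24, adjusted p = 0.00288), as did POLD1, the catalytic subunit of polymerase delta (-0.96 ± 0.31, adjusted p = 0.0285). Neither was called after the GC and length correction, with CHTF18 at -0.22 (adjusted p = 0.498) and POLD1 at -0.15 (adjusted p = 0.502). For POLD4 with P. umbellatus the corrected value is not given here, so whether its fall holds is not shown.

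Of the 2 MCM relatives and the MCM-binding protein, MCM8 and MCMBP fell with each extract in A549 cells and with P. chinensis in Huh7 cells, while MCM9, a relative outside the ring that acts in DNA repair, rose with P. umbellatus in Huh7 cells (0.63 ± 0.14, adjusted p = 0.00511). Of the 6 genes of helicase unloading, 2 fell with each extract in A549 cells and 0 with P. chinensis or B. chinense in Huh7 cells, and with so few genes these counts are not set apart from the 14.8% to 17.1% of all genes lower in A549 cells or from the 10.5% and 0.757% in Huh7 cells. VCP fell and UBXN7 rose with P. umbellatus in Huh7 cells, and CUL2, the scaffold of the unloading ligase, rose with P. umbellatus in Huh7 cells (0.63 ± 0.14, adjusted p = 0.00609). MCM9 and CUL2 stayed called after the GC and length correction, at 0.46 (adjusted p = 0.0245) and 0.27 (adjusted p = 0.045). Corrected values of VCP and UBXN7 are not given here, so whether their calls hold under the correction is not shown.

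**Figure D5:**
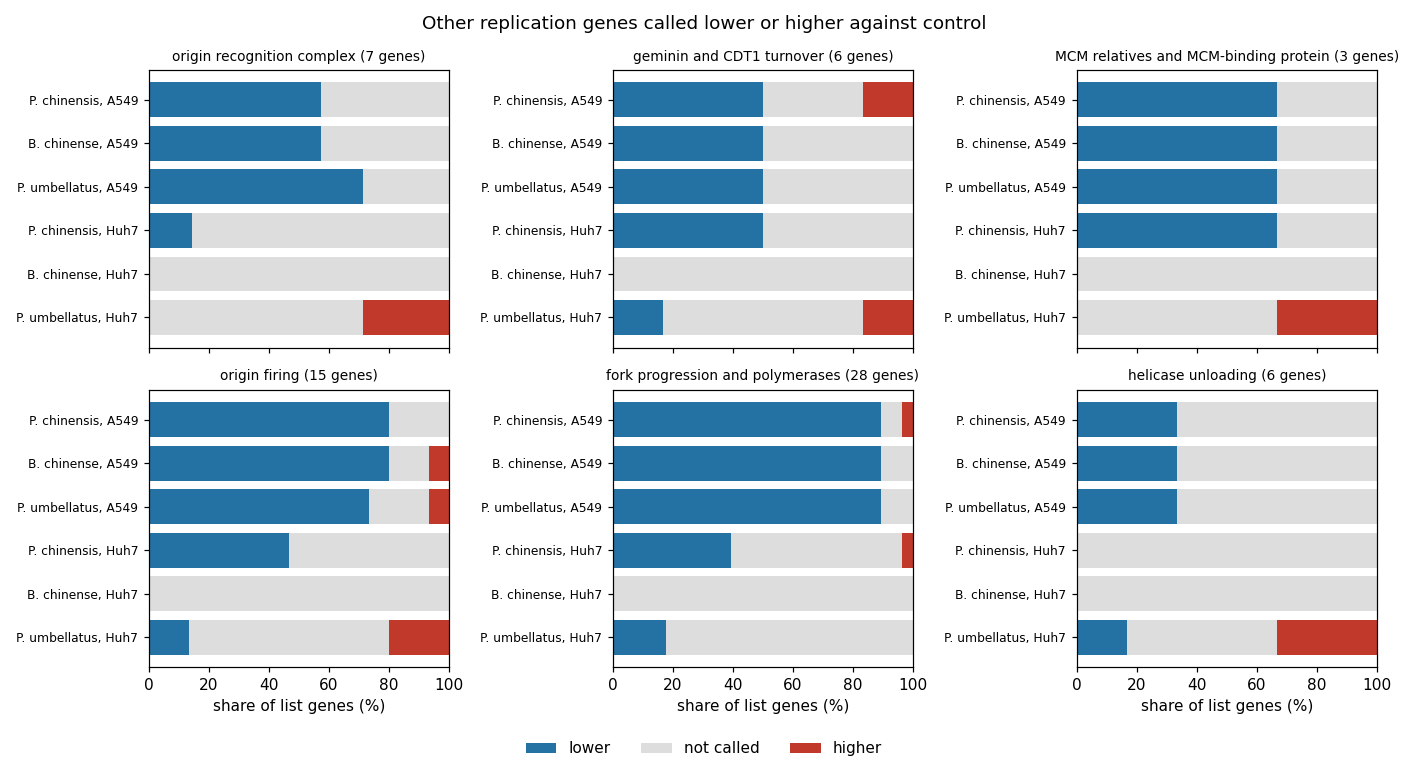
Share of the genes of each of 6 lists called lower, not called or called higher against control (x axis, percent), by extract and line. In A549 the lists of origin firing and of fork progression and polymerases are mostly called lower with each extract, at 12, 12 and 11 of 15 and 25 of 28 genes, while helicase unloading has 2 of 6; in Huh7 the bar of B. chinense holds 0 calls in all 6 lists.

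The genes whose pattern was most like that of the set were searched over the 24 libraries, with each gene centred within its line. Of the 9941 genes whose mean count reached 50 in both lines, the highest Pearson correlations with the mean of the 10 genes were those of NCAPD2 (0.986), UHRF1 (0.983), H1-3 (0.982), TBL1X (0.978) and TIMELESS (0.976), the last of which was in the list of fork genes. Within the set, a gene's correlation with the mean of the other 9 ranged from 0.870 for CDT1 to 0.983 for MCM3. The 24 points share library preparation and depth within a library, and treated and control A549 cells differ in all 10 genes.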

How the data were processed

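RNA-seq of 12 A549 and 12 Huh7 libraries was analysed. The deposited table holds estimated counts per gene, which the authors made with kallisto (version not given in the sources used here) on the Ensembl GRCh38.p13 transcriptome after FastQC, keeping protein-coding genes with an average count above 5; how transcripts were summed and rounded is not given. A transcript-based count can split reads between near-identical sequences. All columns were mapped to samples by name, and 1 row without a matching annotation was left out of the tests.

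The 10 genes, the lists and the tests were chosen with earlier results of these data known. Per line, a model of its 12 libraries was fitted to genes with a mean above 5 counts by edgeR 4.0.16 (R 4.3.3, TMM normalization, prior count 2, two-sided quasi-likelihood test), p-values being adjusted by Benjamini-Hochberg over all genes tested and calls at an adjusted p below 0.05. Differences between lines were interaction terms of a model of all 24 libraries. Values after ± are standard errors of a log2 fold change unless given as SD, and CPM are edgeR's TMM-scaled values, those of cell type markers excepted. Lengths and GC content are those of the GENCODE v44 canonical transcript, start site windows are from RefSeq (GRCh38.p14), and motifs were searched with Python 3.11.15. Named genes were the 10, the origin recognition complex and geminin, and per comparison with control up to 3 called genes with the lowest and 3 with the highest log2 fold change among 65 replication genes whose mean count reached 50, plus the 5 genes most alike in pattern.

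Alternatives were DESeq2 1.42.0, RLE and upper quartile normalization, limma 3.58.1 voom with sample quality weights, no filter, a mean above 50 counts, a fit of only the groups compared, a replicate block, a correction for GC content and length, and leaving out each library. The GC and length correction also shifted whole libraries, since it removed their mean deviation over genes and kept the TMM factors. All values after that correction hold this shift. On simulated counts with 200 genes changed by 1 on the log2 scale, edgeR recovered 162 in the A549 comparison of P. chinensis (5 false calls, 13357 genes) and 155 in the Huh7 comparison (3 false calls, 13685 genes). Libraries summed to between 6803704 and 24345541 counts, and the 10 genes had at least 111 counts in each.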

Additional observations from a re-analysis of the deposited data

Results flagged for a closer look

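The response of a gene to an extract was compared between the lines by an interaction test for the 10 genes and 3 extracts. The response was larger in A549 than in Huh7 cells for 29 of 30 tests, and the values below are the A549 minus Huh7 differences in log2 fold change (edgeR's quasi-likelihood test, adjusted over all genes). With P. chinensis they were -0.64 for MCM2, -0.59 for MCM3, -0.83 for MCM4, -0.87 for MCM5, -0.31 for MCM6 and -0.997 for MCM7, and -1.19 for MCM10, -0.80 for CDC6, -1.09 for CDT1 and -0.80 for CDC45. With B. chinense they were -0.82 for MCM2, -0.71 for MCM3, -0.89 for MCM4, -0.96 for MCM5, -0.76 for MCM6 and -0.94 for MCM7, and -1.19 for MCM10, -0.88 for CDC6, -0.98 for CDT1 and -1.01 for CDC45. With P. umbellatus they were -0.38 for MCM2, -0.51 for MCM3, -0.91 for MCM4, -0.50 for MCM5, -0.62 for MCM6 and -0.58 for MCM7, and -1.12 for MCM10, -0.96 for CDC6 and -0.83 for CDC45. The 3 sets of differences use the same control libraries. None of the 8 groups held 4 to 10 samples, the size set for a check of single libraries far from the rest. Pairs of replicates were compared, however, and a P. umbellatus library in Huh7 cells stood apart from its replicates, as described above. The P. umbellatus differences listed here include that library.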

How the results depend on the processing

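The counts of calls against control in A549 cells and with P. chinensis in Huh7 cells stayed at 10 of 10 under all alternatives except leaving out 1 library, where the latter ranged from 9 to 10 and the 3 counts in A549 cells stayed at 10. The count for B. chinense in Huh7 cells (1) was 2 by DESeq2, 4 by voom, 5 after the GC and length correction and 4 with only the groups compared, and 0 to 4 without 1 library. The count for P. umbellatus in Huh7 cells (6) was 3 after the correction and 3 with only the groups compared, and 5 to 7 without 1 library. Between extracts in A549 cells, P. chinensis against B. chinense (4) gave 7 by DESeq2, 2 by voom and 0 with only the groups compared, and 1 to 5 without 1 library. P. chinensis against P. umbellatus in A549 cells (9) gave 5 with only the groups compared and 4 to 9 without 1 library, and B. chinense against P. umbellatus gave 0 to 0. In Huh7 cells P. chinensis against P. umbellatus (6) gave 10 after the correction and 6 to 8 without 1 library, P. chinensis against B. chinense 6 to 10, and B. chinense against P. umbellatus (4) gave 0 after the correction, 0 with only the groups compared and 1 to 5 without 1 library. Without replicate 3 of P. umbellatus in Huh7 cells, P. chinensis against P. umbellatus had 6 lower and 1 higher, and B. chinense against P. umbellatus 1 lower and 4 higher. The interaction counts without 1 library were 9 to 10 for P. chinensis, 10 for B. chinense and 8 to 9 for P. umbellatus, and the count between control lines was 7. Among the 65 other replication genes in Huh7 cells, P. chinensis (25 calls) gave 46 by voom, 45 after the correction and 45 with only the groups compared, B. chinense (0) gave 1 by DESeq2, 3 by voom, 5 after the correction and 6 with only the groups compared, and P. umbellatus (18) gave 6 with only the groups compared. The cause of these changes was not tested, and without the share of all genes under each fit nothing is read from them.

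Directions that turned belonged to values near 0 or to P. umbellatus in Huh7 cells. The GC and length correction with P. umbellatus in Huh7 cells gave -0.0287 for MCM4, -0.13 for MCM10, -0.15 for CDC6, 0.0138 for ORC1, -0.12 for ORC2, -0.0225 for ORC4 and 0.55 for LRWD1, and CDC6 was at -0.01 with a mean above 50 counts and -0.0039 with only the groups compared, and ORC1 at 0.0426 by voom. For P. chinensis against P. umbellatus in Huh7 cells the correction gave -0.34 for MCM7 and -0.53 for CDT1, and for B. chinense against P. umbellatus -0.17 for MCM2, -0.14 for MCM3 (-0.0321 by voom), 0.0451 for MCM6, -0.0617 for MCM7, -0.15 for CDT1 and -0.12 for CDC45. It gave LRWD1 -0.16 with B. chinense and -0.10 with P. umbellatus in A549 cells. Upper quartile normalization gave ORC4 0.0491 with P. chinensis in A549 cells (0.0077 with a mean above 50 counts), 0.0147 with P. chinensis and 0.0046 with B. chinense in Huh7 cells, and MCM4 0.0036 between control lines. Without 1 library, CDC6 with P. umbellatus in Huh7 cells ranged from -0.0021 to 0.0653 and ORC1 from -0.12 to 0.001. ORC4 ranged from -0.10 to 0.0609 with P. chinensis, -0.14 to 0.0202 with B. chinense and -0.15 to 0.0162 with P. umbellatus in A549 cells, and in Huh7 cells from -0.10 to 0.031 with P. chinensis and -0.0487 to 0.0138 with B. chinense. LRWD1 ranged from -0.13 to 0.31 with B. chinense and from -0.10 to 0.33 with P. umbellatus in A549 cells. In Huh7 cells MCM3 ranged from -0.0283 to 0.0548 for B. chinense against P. umbellatus and MCM7 from -0.0432 to 0.16 for P. chinensis against P. umbellatus, and the interaction of CDT1 with P. umbellatus from -0.29 to 0.10.

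Over all genes the split of calls moved with the scaling. With P. chinensis in A549 cells 2325 genes were lower and 2148 higher, against 1785 and 2733 by upper quartile normalization and 3402 and 1654 after the GC and length correction. With P. chinensis in Huh7 cells 1451 were lower and 1450 higher, against 1136 and 1781, and 3247 and 1534. With B. chinense in A549 cells 2043 were lower and 1789 higher, against 1556 and 2202, and 2791 and 1376.

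The replicate block gave 2 calls for P. chinensis against B. chinense in A549 cells in place of 4, and 10 of 10 for the comparisons with control in A549 cells. Libraries with the same replicate number did not deviate together, with correlations of their deviations from -0.125 to 0.111, so the numbers were not taken to pair the samples.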
